A study of Mus musculus with 3 samples.

Results

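The genes described here carry the adrenergic signal in adult mouse hearts: beta- and alpha-1-adrenergic receptors, the G protein alpha subunits that couple such receptors to adenylyl cyclase, the cardiac adenylyl cyclases and the receptor kinase that switches the receptors off. They were taken as all gene probes whose gene name in the array annotation is Adrb1, Adrb3, Adra1a, Adra1b, Adcy5, Adcy6, Adrbk1, Gnas or Gnai2. This gave 21 probes of 8 of the 9 names, out of 41174 probes on the array. No probe carries the name Adrb3. Of the 21 probes, 19 were bright enough to be tested, as were 29576 of all probes.

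Each of 3 two-colour arrays (2 channels, 60-base oligonucleotide probes) compared heart RNA of Lrrc10-/- and Lrrc10+/+ (WT) mice of strain C57/BL6 at 2 months of age, and each RNA came from 2 pooled hearts. Lrrc10 encodes a leucine-rich repeat protein of heart muscle cells, and the mice lack it from conception, in all cells. The labels put Lrrc10-/- in Cy5 and WT in Cy3 each time, without a dye swap, so that dye and genotype cannot be told apart. The arrays lay on 1 slide with 1 scan, and the labels do not say whether 1 WT pool served all arrays. If it did, the tests leave out the spread between WT pools. The methods call the 3 arrays independent biological replicates.

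The deleted gene itself went against the labels. The Lrrc10 probe read 476, 443 and 352 in Cy3 (labelled WT) and 14283, 20828 and 17703 in Cy5 (labelled Lrrc10-/-) on arrays 1, 2 and 3, a mean log2 ratio of 5.37 ± 0.41 (SD, n = 3; limma adjusted p = 2.51e-04). The transcript of the deleted gene was thus the brighter one in the channel labelled as its knockout on all 3 arrays. Nppa, Mybpc3 and Tnni3, which the study reports as raised in adult Lrrc10-/- hearts, were also lower in the channel labelled Lrrc10-/-. Their mean log2 ratios were -0.78, -0.23 and -0.20. Directions below are therefore given by channel. Cardiac muscle markers were well above background in both channels on all arrays for 8 of 8 genes, with at least 1 saturated spot for 6 of them. In bulk RNA, fewer cells of a type and less RNA per cell cannot be told apart.

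Noradrenaline and adrenaline bind receptors on heart muscle cells. Beta-adrenergic receptors act through the stimulatory alpha subunit encoded by Gnas on adenylyl cyclase, which makes cyclic AMP and so activates protein kinase A, raising heart rate and force, while inhibitory alpha subunits such as that of Gnai2 restrain the cyclase. Alpha-1 receptors act through Gq proteins, phospholipase C and calcium release instead. Receptor kinases, of which Adrbk1 (now named Grk2) is the chief one in heart, phosphorylate occupied beta receptors so that arrestins uncouple them, and failing hearts are known for beta-1 receptor loss and a raised kinase.

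Because several members were read by more than 1 oligonucleotide, the probes on which the results turn are shown by their first 30 of 60 bases, 5′ to 3′ as the array annotation gives them. The pairs of Adra1a and Adra1b, the pair of Adcy5, the brightest and the NESP55 probe of Gnas and the single Gnai2 probe are given, since probes of 1 gene agreed for Adcy5 and parted for Adra1a.
Adra1a A_51_P447229: tgaagaaaatcaccaagttccaaccattaa
Adra1a A_52_P424778: aatatagagtcatcgatagctcaaaagaca
Adra1b A_52_P639048: caatgctggccctttgatagggtcggaaaa
Adra1b A_51_P276766: ggtcatcctggtcatgtactgccgagtcta
Adcy5 A_51_P199041: acaacttccagatgaagattgggctcaaca
Adcy5 A_52_P449208: ttgcagacttcgctatgaagctgatggacc
Gnas A_52_P112182: gcgtgatagaacggccgaactttgacttcc
Gnas A_52_P431319: cctaacctttaggggttaagtaaaacccga
Gnai2 A_51_P432484: cactgacgtcatcatcaagaacaacctgaa

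Of the 19 tested probes, limma called 0 in either direction at an adjusted p under 0.05 (Benjamini-Hochberg over all tested probes), beside 0.00676% of all tested probes in Cy5 and 0 in Cy3. Before adjustment 0 member probes in Cy5 and 1 in Cy3 had a limma p under 0.05, where all tested probes had 1.54% and 1.52%. The methods' t-test had 1 in Cy5 and 0 in Cy3 before adjustment, beside 2.01% and 2.2% of all tested probes, and 0 after it. Every member probe had an adjusted p of 1.00. The signals in Cy3 overlapped those in Cy5 for every member probe. Such overlap was not counted over all tested probes, so this is a description.

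**Figure D1:**
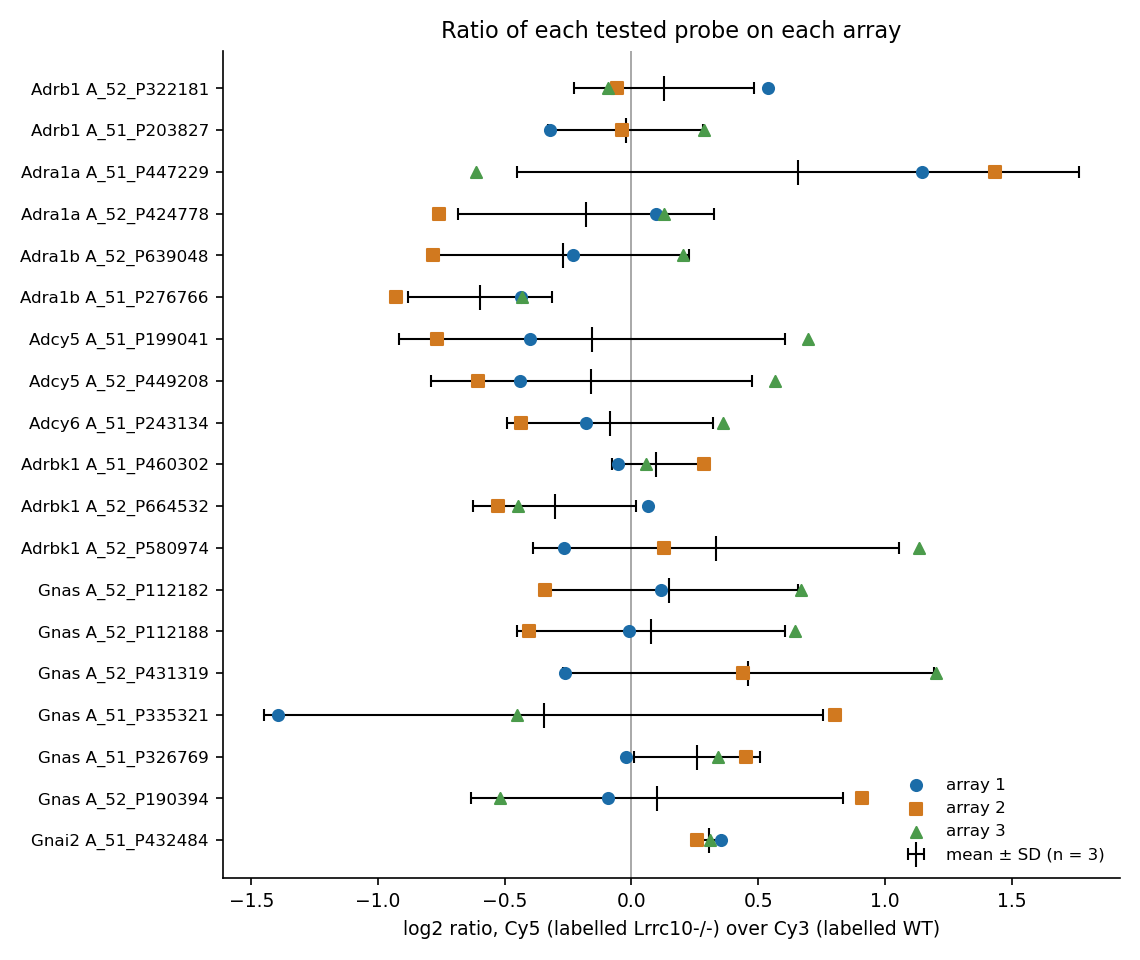
Log2 ratio on the horizontal axis, Cy5 (labelled Lrrc10-/-) over Cy3, for each of the 19 tested probes, with 1 symbol per array and a bar for the mean ± SD over 3 arrays. Only the Gnai2 probe lies to the right of 0 on all 3 arrays and only the dimmer Adra1b probe to the left on all 3.

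The methods of the study ask for a change of at least 1.2-fold in 1 direction on all 3 arrays and for a p under 0.05, without saying that the p must hold on each array. Here the p-value of each array's ratio had to be under 0.05, which is a choice made for these counts. By this rule 0 member probes were selected in Cy5 and 1 in Cy3, where all tested probes had 0.406% and 0.511%. By the fold alone, an alternative chosen after seeing the data, the members had the same counts of 0 and 1, where all tested probes had 1.71% and 1.95%. The 1 selected probe belongs to Adra1b both times. A ratio of the same sign on all 3 arrays was found for 1 of 19 member probes in Cy5 (Gnai2) and 1 in Cy3 (Adra1b), where all tested probes had 10.0% and 11.0%.

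The beta-1 receptor Adrb1, the main beta-adrenergic receptor of heart muscle, was read by 2 probes with small mean ratios. Its brighter probe A_52_P322181 gave signals of 1479.8, 2939 and 2917 in Cy3 and 2149, 2822 and 2737 in Cy5 on arrays 1, 2 and 3. Array 1 had the low Cy3 signal, and on arrays 2 and 3 the channels were nearly equal. The log2 ratios were 0.54, -0.06 and -0.09, with a mean of 0.13 ± 0.35 (SD, n = 3). The dimmer probe A_51_P203827 gave 349, 314 and 145 in Cy3 and 279, 306 and 178 in Cy5, and a mean log2 ratio of -0.02 ± 0.30. Its ratios were -0.32, -0.04 and 0.29, so that the probes of this gene lay on opposite sides of 0 on 2 arrays, 0.86 apart on array 1 and 0.38 apart on array 3. With normexp background correction in place of the deposited processing, the mean ratio of the brighter probe was 0.38 after loess and 0.75 after median centring, a setting that moved the median of all probes to 0.15.

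The patterns nearest to the brighter Adrb1 probe, by Euclidean distance of the 3 log2 ratios over 25752 probes well above background, were those of Larp6 (distance 0.010), Slc30a1 (0.046) and Tatdn3 (0.049). With 3 arrays 28 probes lay within 0.1, so the order among them carries little.

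The beta-3 receptor could not be measured. One probe, A_51_P179442, is described in the annotation as this receptor but carries a transcript identifier as its name, which places it outside the rule, and it was looked up after the search by name had failed. Its processed signals ran from 5.4 to 8.4 in Cy3 and from 5.8 to 8.6 in Cy5. It was not well above background on any array in either channel, and its ratio is listed at 0 on all 3.

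The alpha-1A receptor Adra1a had the most uneven ratio of the receptors, and its 2 probes disagreed. The brighter probe A_51_P447229 read 784, 749 and 2349.8 in Cy3 and 1736, 2026 and 1536 in Cy5. The Cy5 signals lay close together, and Cy3 was low on arrays 1 and 2 and high on array 3, above every Cy5 signal. The log2 ratios were thus 1.15, 1.44 and -0.61, a mean of 0.66 ± 1.11 (SD, n = 3; limma adjusted p = 1.00). The dimmer probe A_52_P424778 read 143, 287 and 164 in Cy3 and 153, 169 and 179 in Cy5, with ratios of 0.10, -0.76 and 0.13 and a mean of -0.18 ± 0.50. The ratios of these probes differed by 1.05, 2.20 and -0.74, and lay on opposite sides of 0 on 2 arrays. Among 4312 genes with several probes well above background, 3.87%, 0.348% and 17.7% had a wider range between their probes on arrays 1, 2 and 3.

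With 1 array left out, the mean of the brighter Adra1a probe was 0.41 without array 1, 0.27 without array 2 and 1.29 without array 3. Without array 3 it had a limma adjusted p of 0.0025 and was then the 1 member probe called, in Cy5. Without either of the other arrays it was not called. In the fit without array 3 limma's prior degrees of freedom were infinite, so that the spread of a probe between the remaining arrays did not enter its p. Myl7, with ratios of -0.21 and 3.41 on these arrays, was called there too, at an adjusted p of 4.21e-04. The other Adra1a probe had -0.33 without array 3.

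Markers of other cells moved with the Adra1a ratio in part, and several lists did not. Endothelial markers had median ratios of 0.16, -0.50 and -0.25 on arrays 1, 2 and 3, and fibroblast markers 0.40, -0.36 and -0.08. Fat markers had 0.45, -0.23 and -0.73 and macrophage markers -0.16, -0.03 and 0.02. All of these medians lay below 0 on array 2, where the ratio of the brighter Adra1a probe was above 0. Of the atrial list, 4 of 4 genes were well above background, with summed signals of 76789 to 120935 in Cy3 and 43551 to 84070 in Cy5. The atrial genes Myl7 and Sln had log2 ratios of -0.21 and 0.08 on array 1, 3.41 and 3.69 on array 2 and -1.27 and -1.15 on array 3. The other genes of the list did not follow this pattern throughout, with -0.12, 1.41 and 0.23 for Myl4 and -0.89, -0.61 and -0.82 for Nppa. Markers of sympathetic neurons, the nerve cells that release noradrenaline in the heart, had median ratios of 0.49, 0.47 and -0.20 over 4 tested genes of 7, and Th, Slc6a2 and Gap43 were too dim to be tested. Of these 7 genes, 3 were well above background throughout. The summed signals of the 4 tested genes ran from 2973 to 5014 in Cy3 and from 2597 to 4404 in Cy5. The log2 ratios of these sums were 0.26, -0.19 and -0.20, so the sum lay below 0 on array 2. There 3 of the 4 genes were brighter in Cy5. Red blood cell markers had median ratios of 0.54, 0.78 and -0.17 over 4 tested genes of 6, high on arrays 1 and 2 and below 0 on array 3 as the Adra1a ratio was. Of these the haem synthesis gene Alas2 had 0.63, 1.04 and -0.32 and the globin gene Hba-a1 0.96, 0.96 and -0.02, while Hbb-b1 lay below 0 throughout, at -0.13, -0.19 and -0.61. All 4 were well above background, 2 of them with saturated spots, and their summed signals ran from 207787 to 287204 in Cy3 and from 216839 to 352163 in Cy5. The part of these cells in the Adra1a ratio was not tested.

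The alpha-1B receptor Adra1b held the 1 member probe that met the selection. Its dimmer probe A_51_P276766 read 334, 574 and 281 in Cy3 and 247, 302 and 208 in Cy5. Cy3 was the brighter channel on all 3 arrays, with log2 ratios of -0.44, -0.93 and -0.43 and a mean of -0.60 ± 0.28 (SD, n = 3; limma adjusted p = 1.00). It was the 1 member probe with an unadjusted limma p under 0.05. The ranges of the channels overlapped between 281 and 302. Among all tested probes 4.75% had a larger mean ratio in either direction. Cardiac muscle markers had median ratios of -0.36, -0.51 and -0.21 on arrays 1, 2 and 3. Of these 8 genes, 3, 0 and 1 were brighter in Cy5. Their part in the Adra1b ratio was not tested.

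The brighter Adra1b probe, A_52_P639048, did not follow on every array. It read 13924, 28154 and 7900.4 in Cy3 and 11879, 16349 and 9099.9 in Cy5. Its ratios of -0.23, -0.78 and 0.20 gave a mean of -0.27 ± 0.50, so Cy3 was brighter on arrays 1 and 2 and Cy5 on array 3. With normexp the mean of the selected probe was -0.30 after loess and -0.13 after median centring, and neither setting left it in the selection. The mean of the brighter probe was -0.18 after loess and 0.26 after median centring.

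**Figure D2:**
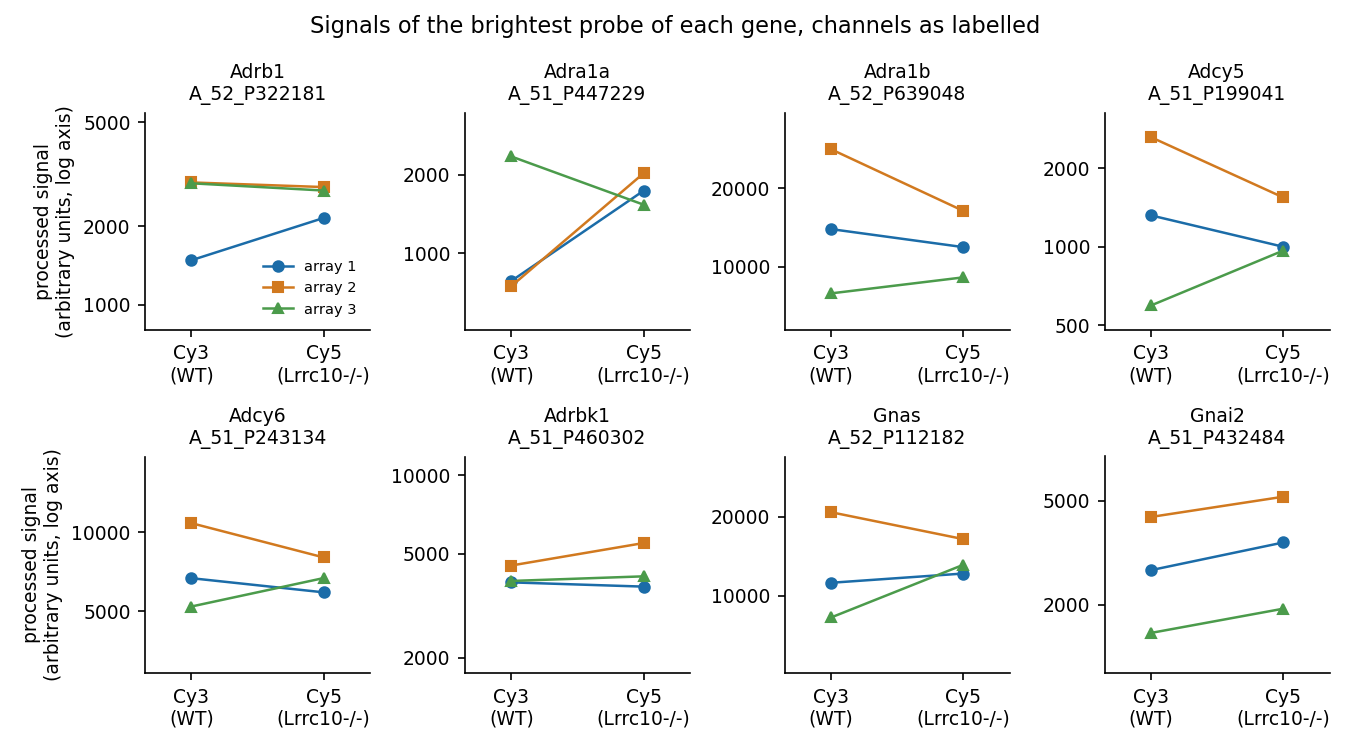
Processed signals (log axis, arbitrary units) of the brightest probe of each of the 8 genes in Cy3 (labelled WT) and Cy5 (labelled Lrrc10-/-), with 1 line per array. The lines of Gnai2 run parallel and upward, those of Adra1a cross, and the Cy3 ends of Adra1b, Adcy5 and Gnas lie wider apart than the Cy5 ends.

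Gnai2, which encodes an inhibitory alpha subunit, had the most even ratio of all member probes. Its probe A_51_P432484 read 2716, 4342 and 1561 in Cy3 and 3467, 5189.6 and 1933 in Cy5. Array 2 was the brightest and array 3 the dimmest in both channels, and Cy5 exceeded Cy3 on each array. The log2 ratios of 0.35, 0.26 and 0.31 gave a mean of 0.31 ± 0.05 (SD, n = 3), a fold of 1.24. This was the 1 member probe with an unadjusted p under 0.05 in the methods' t-test, in which the small SD counts in full. Limma, which draws the SD of a probe toward that of probes of like brightness, gave an adjusted p of 1.00. The p-values of the single arrays were 0.088, 0.21 and 0.13, and the fold of array 2 fell just short of the selection's minimum. Under normexp the mean stayed above 0, at 0.19 after loess and 0.57 after median centring. Leaving out 1 array at a time, it ran from 0.28 to 0.33.

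Gnas is an imprinted locus whose alternative first exons give the stimulatory alpha subunit, its extra-large form and the neuroendocrine protein NESP55. Of its 8 probes, 6 were tested. The pair of bright probes, A_52_P112182 (described as the stimulatory alpha subunit) and A_52_P112188 (transcript variant 8), had ratios that differed by 0.03 to 0.13 on each array. The first read 11195, 20854 and 8246 in Cy3 and 12146, 16450.0 and 13121 in Cy5, with ratios of 0.12, -0.34 and 0.67 and a mean of 0.15 ± 0.51. The second read 7914, 14012 and 4960.4 in Cy3 and 7851, 10589 and 7754 in Cy5, with ratios of -0.01, -0.40 and 0.64 and a mean of 0.08 ± 0.53. On array 1 the pair lay on opposite sides of 0. For both, Cy3 was highest on array 2 and lowest on array 3, and the sign of the ratio changed between arrays.

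The other Gnas probes were dim, and their ratios went apart. A_52_P431319, described as the NESP55 messenger, read 146, 240.4 and 81.2 in Cy3 and 122, 326 and 187 in Cy5, a mean ratio of 0.46 ± 0.73. A_51_P335321, from a noncoding RNA overlapping the first exons, had ratios of -1.39, 0.80 and -0.45, and A_51_P326769, from an extra-large-form clone, -0.02, 0.45 and 0.34 at signals of 32.7 to 46.3. A_52_P190394 (transcript variant 6) was well above background on 2 arrays in Cy3 and on 1 in Cy5, and had -0.09, 0.91 and -0.52. These values show no common direction for the locus. A_52_P94874 and A_52_P219393 lay under the minimum signal and were not tested.

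Over the 5 Gnas probes well above background the log2 ratios ranged over 1.51, 1.21 and 1.65 on arrays 1, 2 and 3, and only 0.997%, 3.69% and 0.510% of the 4312 genes ranged wider. The comparison takes no account of the number of probes, which was larger for Gnas than for most genes.

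The adenylyl cyclases Adcy5 and Adcy6, the main cyclase forms of heart muscle, shared a pattern in which array 3 stood against the other two. Adcy5 was read by a pair of probes that agreed within 0.16 and lay on the same side of 0 on every array. A_51_P199041 read 1321, 2632 and 597 in Cy3 and 1001, 1547 and 968 in Cy5, with ratios of -0.40, -0.77 and 0.70. A_52_P449208 read 1101, 1908 and 390.2 in Cy3 and 812, 1255 and 578 in Cy5, with ratios of -0.44, -0.60 and 0.57. Both means were -0.16, with an SD of 0.76 and 0.63. The probes thus gave the same reading of each array and a mean near 0.

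Adcy6 was read by 1 probe, A_51_P243134, at 6680.5, 10854 and 5205 in Cy3 and 5897, 8023 and 6688 in Cy5. Its ratios of -0.18, -0.44 and 0.36 had the signs of those of Adcy5 at smaller sizes, and the mean was -0.08 ± 0.41. With normexp and loess the means of Adcy6 and of A_51_P199041 turned to 0.06 and 0.05, and with median centring to 0.48 and 0.37. The mean of A_52_P449208 stayed below 0, at -0.32 and -0.06. Smooth muscle markers, 5 of 5 well above background, had median ratios of -0.02, -0.45 and 0.51 on arrays 1, 2 and 3. Their summed signals ran from 23742 to 35099 in Cy3 and from 20148 to 36644 in Cy5. Not every marker followed the median, since ratios above 0 were found for 2, 2 and 5 of them on these arrays. For 1 marker the ratio lay above 0 throughout. The ratios of the bright Gnas pair, like the median of these markers, lay below 0 on array 2 and above it on array 3. The part of smooth muscle in the ratios of the cyclases and of this pair was not tested.

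The receptor kinase Adrbk1 was read by 3 probes, and the brightest of them showed little difference between the channels. A_51_P460302 read 3888, 4512 and 3937 in Cy3 and 3745, 5500.0 and 4101 in Cy5, a mean log2 ratio of 0.10 ± 0.17. A_52_P664532 had ratios of 0.07, -0.53 and -0.45 and a mean of -0.30 ± 0.32, and lay opposite the other 2 probes on all 3 arrays. A_52_P580974 read 438, 552 and 88.6 in Cy3 and 364, 604 and 194 in Cy5. Its ratio of 1.13 on array 3, where Cy3 dropped, set its mean of 0.33 ± 0.72. The range over the probes of this gene on array 3, 1.58, was exceeded by 0.673% of the 4312 genes.

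Within an array, the ratios of members can be set against each other by their brightest probes. Adcy5 minus Adcy6 was -0.07 ± 0.36 (SD, n = 3; exact sign-flip permutation test, two-sided, p = 1). Gnas minus Gnai2 was -0.16 ± 0.49 (exact p = 0.75), Adrb1 minus Adra1b 0.40 ± 0.60 (exact p = 0.50) and Adra1a minus Adra1b 0.93 ± 1.57 (exact p = 0.50). With 3 arrays this test cannot go below 0.25, so these 4 comparisons could not have passed 0.05. With 1 array left out, Adra1a minus Adra1b ran from 0.28 to 1.80 and Adrb1 minus Adra1b from 0.21 to 0.75.

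On each array some member probes were brighter in Cy5 and others in Cy3. Of the 19 tested probes, 6, 8 and 13 were brighter in Cy5 on arrays 1, 2 and 3, where all tested probes had 50.4%, 50.5% and 49.2%. Their median log2 ratio was -0.09, -0.06 and 0.29. For 7 of the 19, arrays 1 and 2 lay on one side of 0 and array 3 on the other, as they did for 7309 of the 29576 tested probes. The array p of the deposited ratio was under 0.05 for 5, 10 and 10 of the 19 probes, beside 25.2%, 37.5% and 28.6% of all tested probes, so single arrays often showed a difference that the next array did not repeat. The probes of a gene share their transcript, and 6 of the 19 belong to Gnas, so these counts are a description.

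Between arrays, Cy3 (labelled WT) varied more than Cy5 (labelled Lrrc10-/-). The SD over arrays of the log2 signal, centred on the median of its array, had a median of 0.51 in Cy3 and 0.21 in Cy5 over the 19 member probes, and of 0.38 and 0.22 over all tested probes. It was larger in Cy3 for 17 of the 19 member probes, beside 77.7% of all tested probes. The widest gap was that of the brighter Adra1a probe, at 1.17 in Cy3 and 0.10 in Cy5. An alternative chosen after seeing the data took signals that were not dye-normalized. The medians over the 18 member probes well above background were then 0.48 and 0.20, and the SD was larger in Cy3 for 15 of them. Of all tested probes well above background 79.4% had the larger SD in Cy3, and their medians were 0.35 and 0.20. Across all probes the Cy3 signals of array pairs correlated at 0.94 to 0.97 and the Cy5 signals at 0.98 to 0.99 (log2 scale, a description over probes that share a hybridization). The log2 ratios had a median SD of 0.50 over the member probes and 0.39 over all tested probes.

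**Figure D3:**
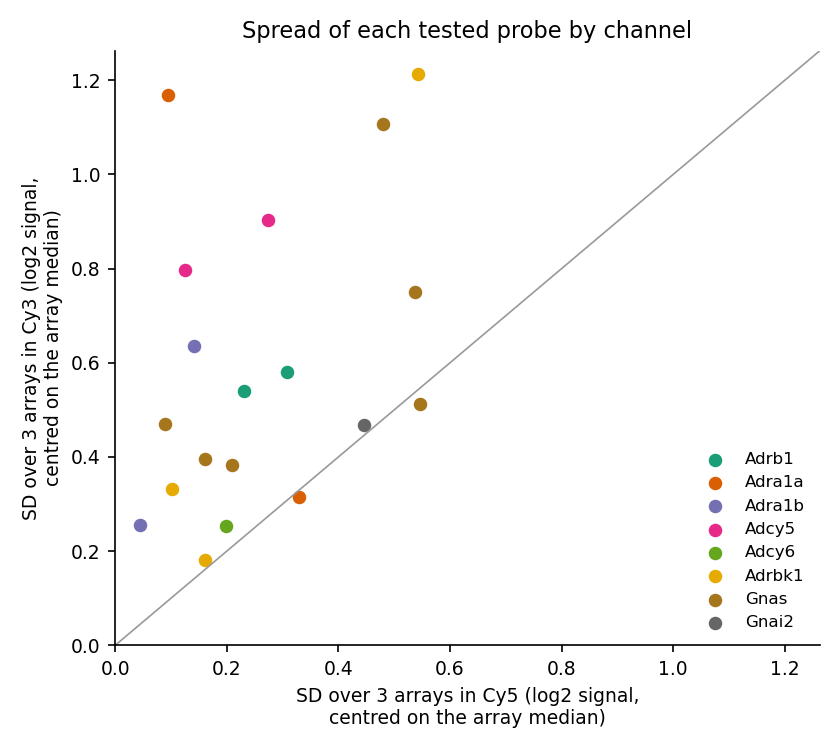
SD over 3 arrays of the log2 signal in Cy3 (vertical) against Cy5 (horizontal) for the 19 tested probes, centred on the median of each array, with a line of equal spread. The points of 17 probes lie above the line, and the brighter Adra1a probe lies highest relative to its spread in Cy5.

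The rest of the pathway was followed in lists of 98 further genes, each read by its brightest probe, and 93 were tested. Limma called 0 of them in either direction at an adjusted p under 0.05, beside 0.00991% of all 20186 genes tested in Cy5 and 0 in Cy3. Before adjustment limma gave 2 genes of the lists a p under 0.05 in Cy5 and 0 in Cy3, beside 1.55% and 1.79%. The methods' t-test had 1 and 4 before adjustment, beside 2.02% and 2.51%, and 0 after it. The same sign on all 3 arrays was found for 10 genes in Cy5 and 13 in Cy3, beside 9.47% and 12.3% of all genes. The median of the mean ratios was 0.02, where all genes had -0.01.

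Rgs2, a regulator that shortens the signal of Gq and is induced by cyclic AMP, was the 1 pathway gene in the selection, where all genes had 0.436% in Cy5 and 0.619% in Cy3. By the fold alone it was the 1 gene in Cy5 and Pde9a and Atp2a2 were the 2 in Cy3, where all genes had 1.6% and 2.23%. Its brighter probe A_51_P419768 read 14201, 18721 and 19159 in Cy3 and 37544, 49239 and 27389.6 in Cy5. All Cy5 signals lay above all Cy3 signals. The ratios of 1.40, 1.40 and 0.52 gave a mean of 1.10 ± 0.51 (SD, n = 3; limma adjusted p = 1.00). The other Rgs2 probe had 1.28, 0.94 and 0.38, a mean of 0.87 ± 0.46. Under normexp the brighter probe had 1.04 after loess and 1.49 after median centring, and without array 3 its adjusted p was 0.0081, in the fit that leaves the spread of each probe out.

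Among the genes that turn receptors off, 3 of 6 receptor kinases and arrestins were brighter in Cy3 on all 3 arrays, at mean ratios of -0.31 for Grk6, -0.20 ± 0.24 for Arrb1 (beta-arrestin 1) and -0.13 for Grk5, with a list median of -0.14. Neither of the other 2 Grk6 probes had the same sign on all arrays, and the other Arrb1 probe had a mean of 0.02. Of 12 phosphodiesterases, which break down cyclic nucleotides, 2 exceeded their Cy3 signal in Cy5 on every array, Pde3a (0.54 ± 0.42) and Pde7a (0.26 ± 0.26), and Pde9a (-0.44 ± 0.16) and Pde1c (-0.11) lay the other way. Pde9a had -0.09 after normexp and loess and 0.05 after normexp and median centring. None of these passed the adjusted test. Of 16 other G protein subunits, 3 were brighter in Cy5 on all arrays, the inhibitory subunit Gnai3 at 0.32, Gna11 at 0.21 and Gng12 at 0.11, and 0 in Cy3.

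Of 11 targets of protein kinase A, 5 were brighter in Cy3 on all arrays and 0 in Cy5, and the list median was -0.23. They were the calcium pump gene Atp2a2 (-0.37 ± 0.05), the potassium channel gene Kcnq1 (-0.36 ± 0.47), Ppp1r1a (-0.27), an inhibitor of protein phosphatase 1, and the sarcomere genes Mybpc3 (-0.23) and Tnni3 (-0.20). The Atp2a2 value is that of the brightest of 4 probes, which was saturated, and the other 3 had means of -0.31, 0.06 and 0.11, a median over all 4 of -0.13. Kcnq1 had ratios of -0.11, -0.90 and -0.07, and without array 2 its mean was -0.09. In this list 4 genes had saturated spots, Atp2a2 and Mybpc3 among them. Of the 8 cardiac muscle markers, 6 of them with saturated spots, 7 had a mean ratio below 0 and 5 were brighter in Cy3 on all arrays. Their median was -0.30, with a range from -0.78 (Nppa) to 0.33 (Myh6). Tnni3 belongs both to these markers and to the targets of protein kinase A. The part of cardiac muscle in the list of targets was not tested.

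The remaining lists held few genes of 1 direction. Of 16 cyclic AMP effectors and anchors, Rapgef4 (0.42 ± 0.30), a cyclic AMP sensor also known as Epac2, and the kinase subunit gene Prkar2a (0.32 ± 0.24) had higher Cy5 signals on each array and Akap7 (-0.14) higher Cy3 signals. The other 2 Rapgef4 probes had means of 0.06 and -0.07, a median over the 3 of 0.06, and those of Prkar2a had 0.21 and 0.84. In the Gq branch of 14 genes, Rgs2 and Plcb4 (0.19 ± 0.16) were brighter in Cy5 and the calcium release channel genes Itpr1 (-0.41 ± 0.54) and Itpr2 (-0.13) in Cy3. Itpr1 had ratios of -0.20, -1.02 and -0.01, and without array 2 its mean was -0.10. Of the 6 other receptors and 5 tested of 8 other cyclases, 0 had the same sign on all arrays, and Adcy2, Adcy8 and Adcy10 were too dim to be tested. Of 9 genes for making, storing or clearing catecholamines, 7 were tested, and the vesicle transporter gene Slc18a2 (0.14) was the 1 with a common sign.

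Of the 23 pathway genes with 1 sign on all arrays, 12 had a mean that moved by more than 1.5-fold when some array was left out. The largest moves, over 2-fold, were those of Kcnq1, Itpr1, Arrb1 (-0.07) and Pde7a (0.12) without array 2. Of the 17 with several tested probes, 9 had a probe whose mean lay on the other side of 0.

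**Figure D4:**
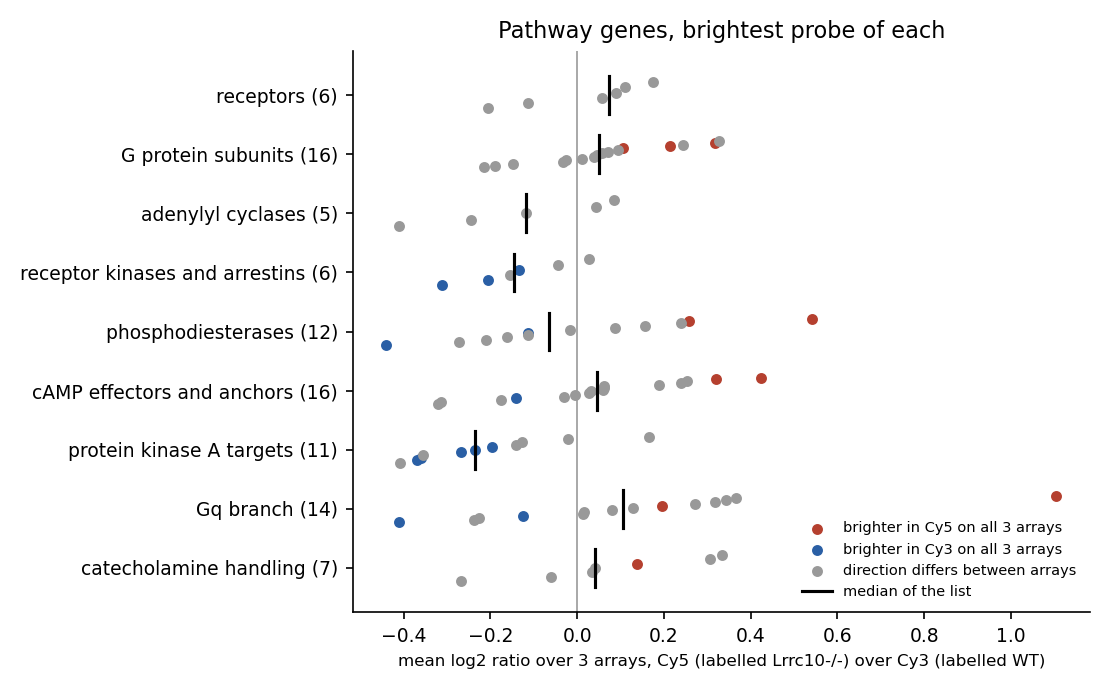
Mean log2 ratio over 3 arrays of the 93 tested pathway genes by list, with the number tested in parentheses and a bar at the median of each list. Red points were brighter in Cy5 on all 3 arrays, blue points in Cy3, and Rgs2 stands at 1.10, apart from the other genes.

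Median centring after normexp moved the median of all genes from -0.01 to 0.18 and that of the pathway genes to 0.29, so that small ratios below 0 turn positive there with the rest. Relative to the median of all genes, 9 of the 13 genes brighter in Cy3 on all arrays kept their side in that setting, and Kcnq1 (0.16), Pde1c (0.26), Akap7 (0.31) and Itpr2 (0.37) changed it. Among those kept, Arrb1 (-0.03) and Atp2a2 (-0.04) lay close to that median. Of the 10 genes brighter in Cy5, 9 kept their side and Slc18a2 (-0.05) changed it. After normexp and loess, which left the median of all genes near 0, Pde1c (0.06), Akap7 (0.16), Itpr2 (0.13) and Gng12 (-0.16) changed side, leaving 10 of 13 in Cy3 and 9 of 10 in Cy5. Among the member probes, 4 of 19 kept their sign under every alternative.

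**Figure D5:**
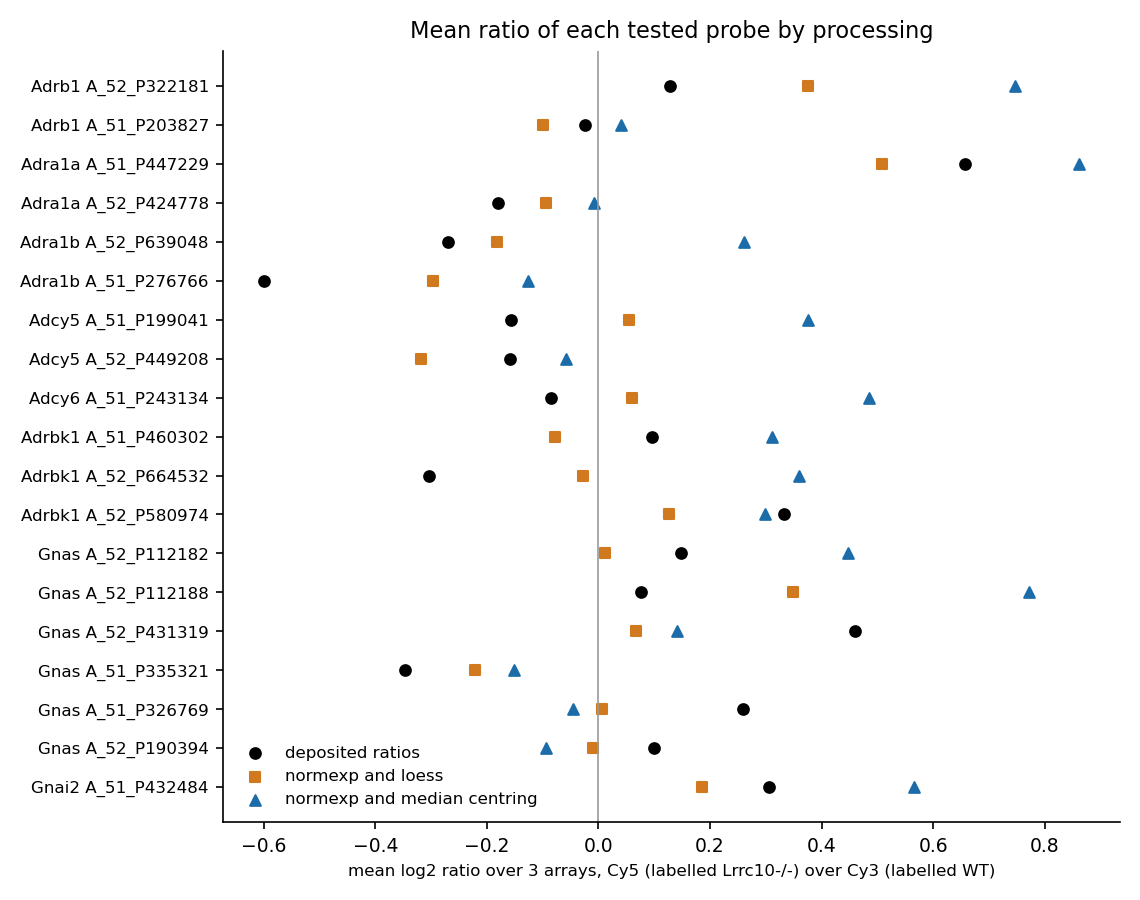
Mean log2 ratio over 3 arrays of each tested member probe from the deposited ratios, after normexp with loess and after normexp with median centring. The Gnai2 probe lies right of 0 and the dimmer Adra1b probe left of 0 in all 3 settings, while Adcy6 and the brighter Adra1b probe change side.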

How the data were processed

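The authors deposited, per the file headers, Agilent Feature Extraction 9.1.3.1 output for each array. Its mean and background intensities are raw. The deposited processed signal intensity had the local background subtracted and its dyes normalized array by array (linear, then lowess), with a surrogate value for spots not above background. The deposited log10 ratio is Cy5 over Cy3 of these intensities, and the deposited p-value belongs to 1 spot on 1 array. The authors' series value table repeats these log10 ratios, lacking 1 value. Deposited flags, coded 0 or 1, mark outliers, saturation and spots well above background, which numbered 28942 to 30810 of 43379 gene spots per channel. The number of arrays limits the precision.

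Ratios were put on the log2 scale, outlier spots were left out (4 to 21 per array) and spots of a probe were averaged. Probes with a mean processed signal (geometric, over channels and arrays) of at least 20 were fitted with limma 3.58.1 in R 4.3.3, as an intercept moderated by eBayes (intensity trend). Tests were two-sided, adjusted by Benjamini-Hochberg. The selection after the methods took ratios of 1.2 or more on each of the 3 arrays, and the array p under 0.05 on each was added here, since the methods do not say to which p their limit applies. Names came by RefSeq accession from the GRCm38.p6 gene table for 24844 probes and otherwise from the array annotation, and sequences from that annotation. Alternatives were normexp (offset 50) with loess or median centring, other signal filters, no trend, no saturated probes, the methods' t-test, other probes of a gene and leaving out each array.

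The members and gene lists were chosen with earlier results of these data known. Named genes were the deleted gene, all members, pathway genes selected by the methods' rule and up to 8 per direction with the largest mean ratio, of 1 sign and well above background on all arrays, and the 3 genes nearest to Adrb1. Outside this rule, Pde1c, Grk5, Gng12, Akap7, Itpr2, Tnni3 and Slc18a2 were named after their values were seen, to complete counts, as were the marker genes and the probe described as the beta-3 receptor. The model was tested on simulated data. Embryonic hearts were not analysed here.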

Additional observations from a re-analysis of the deposited data

How the results depend on the processing

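The count of member probes called by limma was 0 in Cy3 under all alternatives run, and in Cy5 it was 1 without array 3 (Adra1a) and 0 to 1 over the arrays left out. The methods' t-test, unadjusted, had 1 in Cy5. Without array 3, limma called 409 probes in Cy5 and 134 in Cy3 among all tested probes, where it called 2 and 0 with all arrays. Pathway genes called in Cy5 numbered 0 to 1 with an array left out (Rgs2 without array 3). The selection held 0 to 1 member probes in Cy5 and 2 in Cy3 with an array left out, and 0 in Cy3 after normexp with either normalization. Probes of 1 direction on all arrays numbered 2 to 5 in Cy5 and 3 to 7 in Cy3 with an array left out. They numbered 2 in each channel after normexp and loess, and 6 in Cy5 after normexp and median centring. With an array left out, the selection and the common direction ask for agreement of fewer arrays. The shares of all tested probes were not counted under these settings, so the member counts are a description.

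Of 95 values of member ratios under normexp or with an array left out, 72 kept sign and side of the threshold, 22 changed sign and 1 passed the threshold. The other settings leave the mean of a probe as it is. After normexp and loess the sign changed for Adcy5 A_51_P199041 (0.055), Adcy6 (0.061), Adrbk1 A_51_P460302 (-0.078) and Gnas A_52_P190394 (-0.0091). After normexp and median centring it changed for Adrb1 A_51_P203827 (0.040), Adra1b A_52_P639048 (0.26), Adcy5 A_51_P199041 (0.37), Adcy6 (0.48), Adrbk1 A_52_P664532 (0.36), Gnas A_51_P326769 (-0.045) and Gnas A_52_P190394 (-0.094). The cause was not tested.

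With each array left out in turn, the mean ratio ranged from -0.075 to 0.24 for Adrb1 A_52_P322181 and from -0.18 to 0.13 for A_51_P203827. It ranged from 0.27 to 1.29 for Adra1a A_51_P447229 and from -0.33 to 0.11 for A_52_P424778, from -0.58 to 0.15 and from -0.52 to 0.064 for Adcy5 A_51_P199041 and A_52_P449208, and from -0.31 to 0.091 for Adcy6. It ranged from -0.51 to -0.013 for Adra1b A_52_P639048 and from -0.68 to -0.43 for A_51_P276766. For Adrbk1 it ranged from -0.068 to 0.63 (A_52_P580974), -0.49 to -0.19 (A_52_P664532) and 0.0024 to 0.17 (A_51_P460302), and for Gnas from -0.11 to 0.39 (A_52_P112182), -0.21 to 0.32 (A_52_P112188), -0.92 to 0.18 (A_51_P335321), 0.089 to 0.82 (A_52_P431319, NESP55), 0.16 to 0.40 (A_51_P326769) and -0.31 to 0.41 (A_52_P190394). Adcy5 minus Adcy6 ranged from -0.27 to 0.059, Gnas minus Gnai2 from -0.42 to 0.064, Adrb1 minus Adra1b from 0.21 to 0.75 and Adra1a minus Adra1b from 0.28 to 1.80. No further pairing was possible because the arrays form 1 group and each ratio already pairs both channels. With 1 dye orientation, a dye effect of a probe cannot be told apart from genotype.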
